A study of Mus musculus with 12 samples.

Results

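Collagen chains are the gene products that assemble into the collagens, the main structural proteins of the extracellular matrix. Their genes were taken as every gene symbol made of Col, a type number, the letter a and a chain number, which gave 43 of the 22609 genes in the count tables. RNA had been sequenced from mouse cell fractions rich in sensory neurons, taken from trigeminal ganglia (TG), which serve the head, and from dorsal root ganglia (DRG), which serve the trunk and limbs. The 12 libraries form 4 groups of 3, a female and a male group for each ganglion. All mice were naive C57BL animals of 3 to 4 months by the labels, with no transgene and no treatment, and females were taken in estrous. The methods name the substrain C57BL/6J and give a lower age. The ganglia were dissociated enzymatically and the neuronal fraction was collected from a Percoll density gradient, so that each library is a mixture in which non-neuronal cells remain. The series states 3 males and 3 females, so TG and DRG libraries of the same sex may come from the same animals, and the labels do not link them. The p-values below measure the spread between these libraries.

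Collagen α chains wind around each other in groups of 3 into a rope-like helix, and every turn of the helix needs a glycine, so the protein repeats the unit glycine-X-Y. Fibrillar collagens form the tensile fibres of connective tissue such as the capsule and endoneurium of a ganglion. Type IV collagens form the sheet-like network of basement membranes around Schwann cells, satellite glia and vessels. The remaining classes bind to fibrils, make short-chain or beaded networks, or stay anchored in the plasma membrane.

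The 43 genes were placed in 8 classes from textbook knowledge: 11 fibrillar, 6 basement membrane (type IV), 6 beaded filament (type VI), 3 network-forming short chain, 9 fibril-associated, 4 transmembrane, 2 multiplexin and 2 others, the anchoring fibril chain Col7a1 and Col28a1. The repeat that defines the family can be read in the coding sequences of the mm9 (NCBIM37) annotation, where the longest complete coding sequence of each member was searched for consecutive units that start with a glycine codon (GGN). The first 10 units of the longest run are shown for chains of several classes. Col1a1 is a fibrillar chain of skin and bone, and Col3a1 is the fibrillar chain with the highest mean level here. Col12a1 is the member that passed the TG against DRG test. Col4a1 is a common and Col4a6 a rare basement membrane chain, Col6a1 a type VI chain and Col25a1 a neuronal transmembrane chain. Glycine codons at the start of each unit are in capitals, 5′ to 3′ in reading frame.
Col1a1: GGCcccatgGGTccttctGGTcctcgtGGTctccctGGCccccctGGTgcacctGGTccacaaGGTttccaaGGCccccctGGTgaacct
Col3a1: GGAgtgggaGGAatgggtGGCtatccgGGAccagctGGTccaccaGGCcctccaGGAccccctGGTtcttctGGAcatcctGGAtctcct
Col12a1: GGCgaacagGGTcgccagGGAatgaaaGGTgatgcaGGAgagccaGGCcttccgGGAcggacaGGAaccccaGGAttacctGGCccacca
Col4a1: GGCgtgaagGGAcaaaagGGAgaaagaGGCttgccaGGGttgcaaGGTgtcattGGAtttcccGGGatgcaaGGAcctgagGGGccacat
Col4a6: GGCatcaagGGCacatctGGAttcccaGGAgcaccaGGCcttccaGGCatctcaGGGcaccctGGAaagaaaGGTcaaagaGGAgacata
Col6a1: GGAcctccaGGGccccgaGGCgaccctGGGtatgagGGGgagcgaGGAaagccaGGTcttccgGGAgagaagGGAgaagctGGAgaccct
Col25a1: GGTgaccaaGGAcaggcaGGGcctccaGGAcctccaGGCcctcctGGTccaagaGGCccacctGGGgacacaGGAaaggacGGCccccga
The fibrillar chains are set apart by how long this repeat goes on without a break, whereas the other classes shown overlap. In the 11 fibrillar chains the longest run had 216 to 344 units, with a median of 338. In the 6 basement membrane chains it had 39 to 66 units, and 23 to 27 separate runs of at least 3 units were counted per chain. Col12a1, a fibril-associated chain that is mostly made of other domains, had a longest run of 32 units, and its runs took 8.12% of the coding sequence. In the 4 transmembrane chains the longest run had 40 to 55 units.

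Collagen transcripts were a small part of every library. Reads in genes ran from 7511765 to 15396090 per library. The 43 members together took 0.052% of these reads in male TG 1 (95% Wilson interval 0.0507 to 0.0533%) and 0.312% in female DRG 2 (0.308 to 0.315%), the lowest and highest of the 12. Such intervals cover counting error only. Of the members, 26 had reads in every library and 25 had at least 10, whereas Col22a1, a fibril-associated chain of tissue junctions, stayed under 10 reads in every library. Sensory neuron markers were present in every library, with a summed level of 5297 to 9178 CPM (read counts scaled to a common library size). Among non-neuronal markers, those of satellite glia summed to 2383 to 6295 CPM and those of myelinating Schwann cells to 1799 to 2810. In female TG 2 the satellite glia sum (6295) was above the neuron sum (5590). The sums were 529 to 1130 for fibroblast, 191 to 662 for endothelial, 215 to 641 for mural and 52.0 to 282 for macrophage markers. In a principal component analysis, female DRG 1 and female TG 3 stood apart from the other libraries, and some of the results are also given without them.

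Levels between genes were compared as CPM per kilobase of exon, and described over all 12 libraries as mean ± SD (n = 12). The most abundant chain was Col28a1, a collagen known from Schwann cells, at 29.0 ± 6.69 CPM per kilobase. Next came the fibrillar chain Col3a1 at 25.3 ± 17.6, the basement membrane chain Col4a1 at 19.7 ± 10.0, the type I fibril chain Col1a2 at 18.4 ± 10.6 and the multiplexin Col15a1 at 16.6 ± 10.8. Neighbours in this order did not differ beyond their spread. Col28a1 had the smallest spread for its level among these 5, whereas Col3a1 ran from 3.79 to 63.0 CPM per kilobase between libraries. Within the remaining classes, the highest levels were those of Col6a1 (8.66 ± 7.07) and Col6a3 (7.003 ± 3.14) in type VI, Col14a1 (5.19 ± 1.98) and Col12a1 (4.35 ± 2.15) among the fibril-associated chains, Col8a1 (4.52 ± 3.34) and Col8a2 (1.02 ± 0.92) among the short chains, and Col23a1 (3.94 ± 1.14) and Col25a1 (0.925 ± 0.613) among the transmembrane chains. The multiplexin Col18a1, which carries endostatin, was at 3.66 ± 2.77, and Col7a1, the anchoring fibril chain of skin, at 0.0688 ± 0.0759. The cartilage chains Col2a1, Col9a1, Col9a3, Col10a1 and Col11a2 had means of 0.39, 0.0212, 0.126, 0.19 and 0.132, and each had at least 1 library at 0. So did Col9a2, at 1.44 ± 1.07. Col11a1, which also belongs to cartilage, was at 3.21 ± 1.41 and ran from 1.67 to 6.33.

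**Figure D1:**
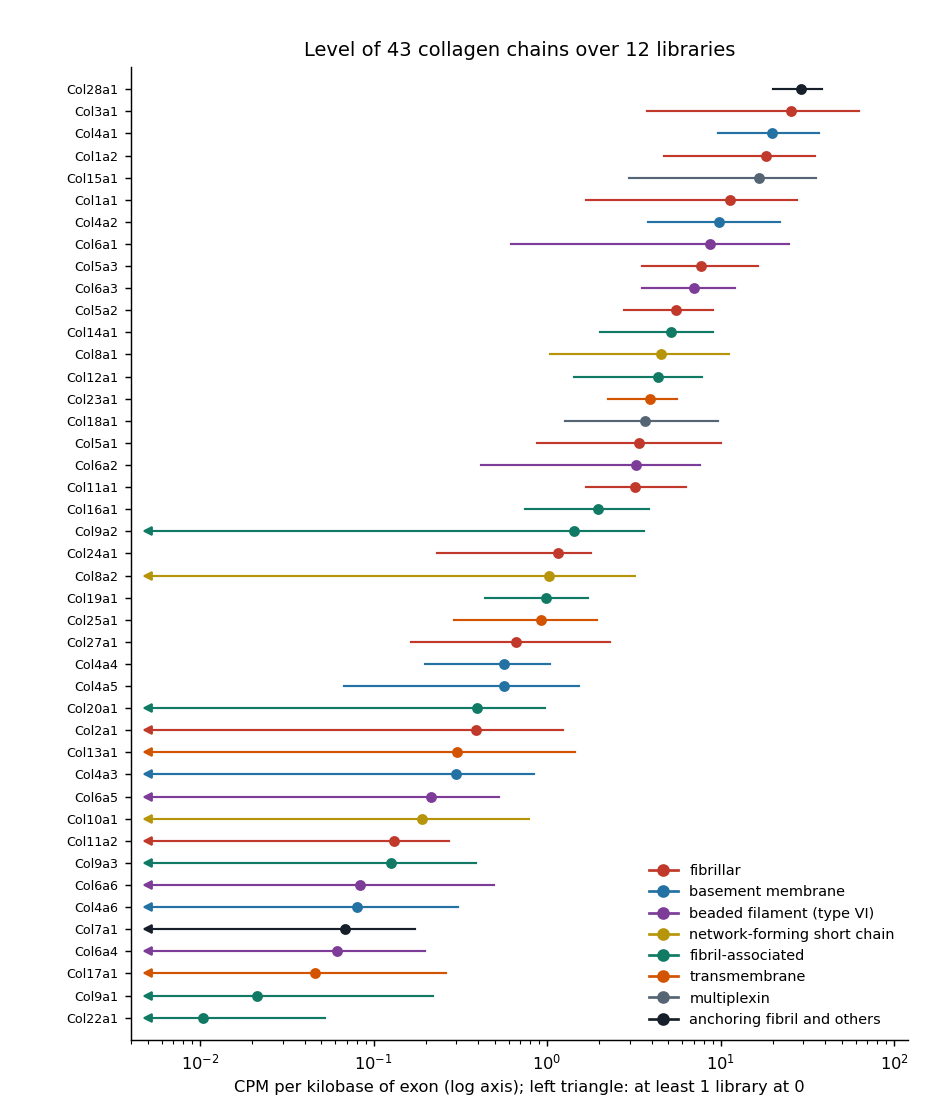
Level of each of the 43 collagen chains in CPM per kilobase of exon (log axis), as the mean (point) and the range (line) over 12 libraries, coloured by class. Col28a1 leads at 29.0 and Col22a1 is lowest at 0.0104, and left triangles mark members with at least 1 library at 0.

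The share of each class in the summed collagen signal (CPM per kilobase) was then compared between ganglia as a description. Basement membrane chains made up 16.1 to 20.7% of the collagen signal in the 6 TG libraries (mean 18.2 ± 1.49%, SD, n = 6) and 11.0 to 14.7% in the 6 DRG libraries (12.8 ± 1.56%), and the ranges did not overlap. The fibrillar share of the TG libraries (27.0 to 38.0%) overlapped with that of the DRG libraries (35.5 to 44.4%). So did the transmembrane share, at 2.44 to 5.22% in TG against 1.47 to 2.90% in DRG. The summed basement membrane signal itself ran from 13.8 to 61.4 CPM per kilobase in TG libraries and from 18.0 to 56.0 in DRG libraries, so that the shares separated the ganglia and the levels did not. The summed signal of all 43 chains was 172 ± 92 in TG against 233 ± 98.5 in DRG (n = 6 each).

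**Figure D2:**
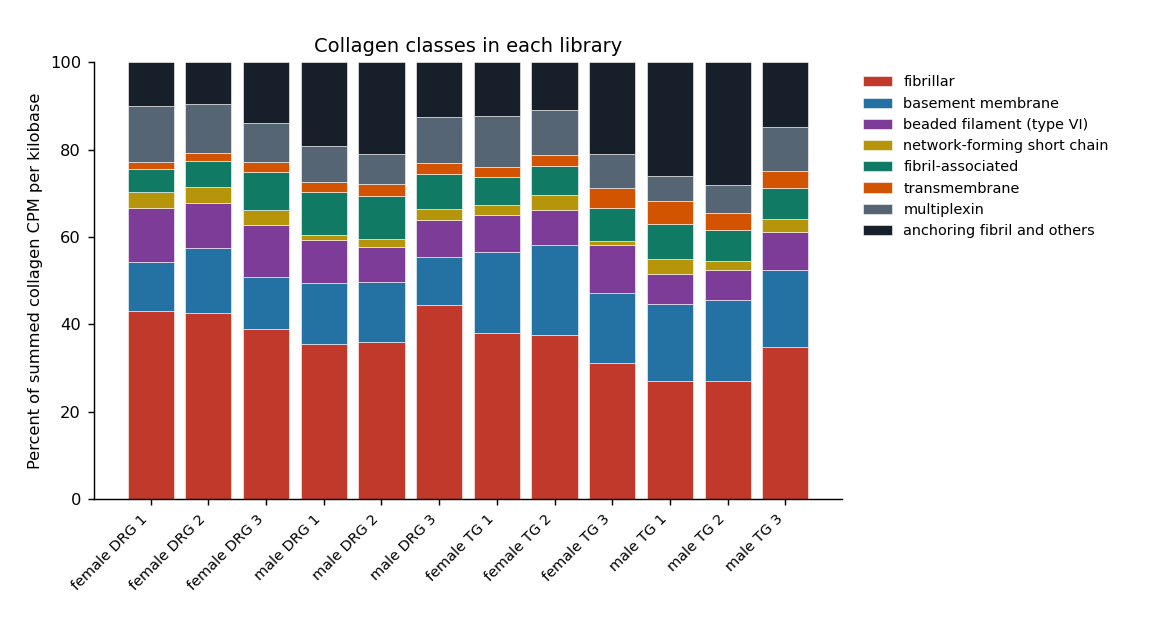
Share of each collagen class in the summed collagen CPM per kilobase of every library, as stacked bars in percent from 0 to 100. The basement membrane band is 16.1 to 20.7% in the 6 TG libraries and 11.0 to 14.7% in the 6 DRG libraries.

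TG libraries were compared with DRG libraries gene by gene with edgeR's quasi-likelihood test on all 12 libraries, at an adjusted p below 0.05 and a fold above 2. Of the 43 members, 39 had enough reads to be tested, and Col6a6, Col9a1, Col17a1 and Col22a1 did not. Of the 39, 1 passed, Col12a1, which was lower in TG, and 0 were higher in TG. Over all 14829 genes tested, 0.29% passed as higher in DRG and 0.479% as higher in TG. With the same thresholds DESeq2 called 4 members, Col12a1, Col6a1, Col19a1 and Col4a6, and 1.32% of genes. At an unadjusted p below 0.05, 8 members were higher in DRG (background 4.18% of genes) and 2 were higher in TG (background 4.65%). The median log2 fold change (TG over DRG) of the 39 members was -0.17, with 13 above and 26 below 0, and that of all genes was -0.01. Without female DRG 1 and female TG 3 the median of the members was 0.09, with 20 above and 19 below 0. With a correction for GC content and length it was -0.45, against -0.07 for all genes. Then 4 members passed, all lower in TG: Col12a1, Col5a1, Col6a1 and Col6a2, where 0.756% of all genes passed in either direction.

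**Figure D3:**
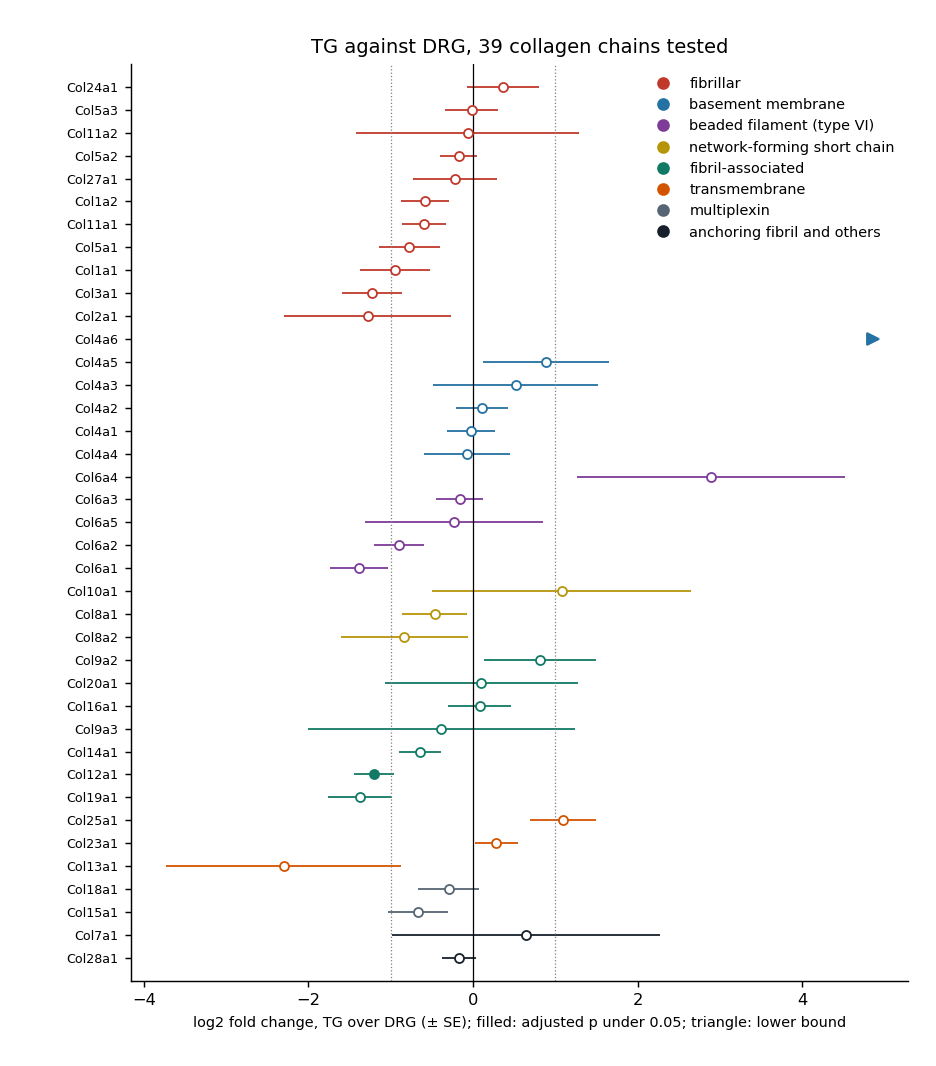
Log2 fold change, TG over DRG, with its standard error for the 39 members tested, grouped and coloured by class. Col12a1 (filled) has an adjusted p below 0.05, the dotted lines mark a fold of 2, and the triangle for Col4a6 is the lower bound from its absence in DRG reads.

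Among the fibrillar chains, which carry tensile strength, 10 of 11 had lower fitted levels in TG, where 7568 of all 14829 genes tested did. In the reported edgeR fit 0 passed the test and 3 had an unadjusted p below 0.05, and DESeq2 called 0. With no filter on low counts, or without male TG 3, Col3a1 passed. With a block for replicate number, which the labels do not tie to animals, Col1a1 and Col3a1 passed. Col5a1 passed with the correction for GC content and length. The median log2 fold change of the class was -0.58, and Col24a1 at 0.36 was the exception. Col3a1, the type III chain of soft connective tissue, had the smallest p of the class. Its CPM was 440, 529 and 177 in female DRG, 191, 198 and 233 in male DRG, 228, 258 and 61.5 in female TG and 31.8, 61.6 and 144 in male TG. Every male TG library lay under every DRG library, whereas female TG 1 and 2 lay inside the DRG range. The difference was -1.23 ± 0.36 (log2, SE; adjusted p = 0.161, edgeR). The type I chains Col1a1 and Col1a2, which join in the same fibril, gave -0.95 ± 0.43 (adjusted p = 0.531) and -0.58 ± 0.29 (adjusted p = 0.597). Col5a1 and Col5a2, which start fibril growth, gave -0.77 ± 0.37 (adjusted p = 0.574) and -0.17 ± 0.23 (adjusted p = 0.959). Without female DRG 1 and female TG 3, Col3a1 was at -0.96 and Col1a1 at -0.59, and the class was not summarized in that fit.

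Col12a1 encodes the fibril-associated chain of type XII collagen, which coats fibrils in dense connective tissue. The gene lies on chromosome 9 at 79446798-79566638 (mm9, minus strand). Its CPM was 119, 112 and 84.2 in female DRG and 81.3, 81.1 and 71.0 in male DRG. In female TG it was 63.1, 70.6 and 21.8, and in male TG 22.4, 32.9 and 33.9. All 6 DRG libraries were above all 6 TG libraries, narrowly so between male DRG 3 (71.0) and female TG 2 (70.6). Means were 91.6 ± 19.5 in DRG and 40.8 ± 20.9 in TG (SD over 6 libraries each), and the log2 fold change was -1.20 ± 0.25 (adjusted p = 0.0192, edgeR). It was the only member among those tested whose ganglia did not overlap with DRG higher, where 0.364% of all genes tested showed such a separation. No tested member separated with TG higher, where the background was 0.998%. In male libraries alone the difference was -1.39 ± 0.25 (adjusted p = 0.0295) and in female libraries alone -1.01 ± 0.41 (adjusted p = 0.99995). Without female DRG 1 and female TG 3 it was -0.97 ± 0.19 (adjusted p = 0.0104), which is under the fold minimum. The call was also lost on leaving out male DRG 1, male DRG 2 or male TG 1, where 0 members passed. The log2 fold change of Col12a1 was then -1.19, -1.19 and -1.12, with adjusted p of 0.0502, 0.0564 and 0.0678.

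The other fibril-associated chains gave no call by edgeR, and DESeq2 called Col19a1. Col14a1, which resembles Col12a1 in its domains, was at 35.4, 63.4 and 30.7 CPM in female DRG, 53.3, 52.2 and 30.0 in male DRG, 32.7, 40.2 and 27.8 in female TG and 14.2, 23.1 and 33.8 in male TG. The ganglia overlapped, and the difference was -0.65 ± 0.26 (adjusted p = 0.418). Col19a1, a minor chain of basement membrane zones that is singled out here after its values were seen, had the second smallest p of this class. It was at 9.81 ± 2.79 CPM in DRG and 3.78 ± 0.609 in TG, a difference of -1.38 ± 0.39 (adjusted p = 0.129 in edgeR, 0.0120 in DESeq2). Only male DRG 1, at 4.30 CPM, lay within the TG range of 3.04 to 4.57. Reads of Col9a1, which was not tested, were 16 in TG and 0 in DRG. Its mean level in TG was at least 5.03 times a floor of 3 counts over the DRG group. The TG reads came from female TG 1 and 2 only, and the bound leaves out the spread between libraries.

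**Figure D4:**
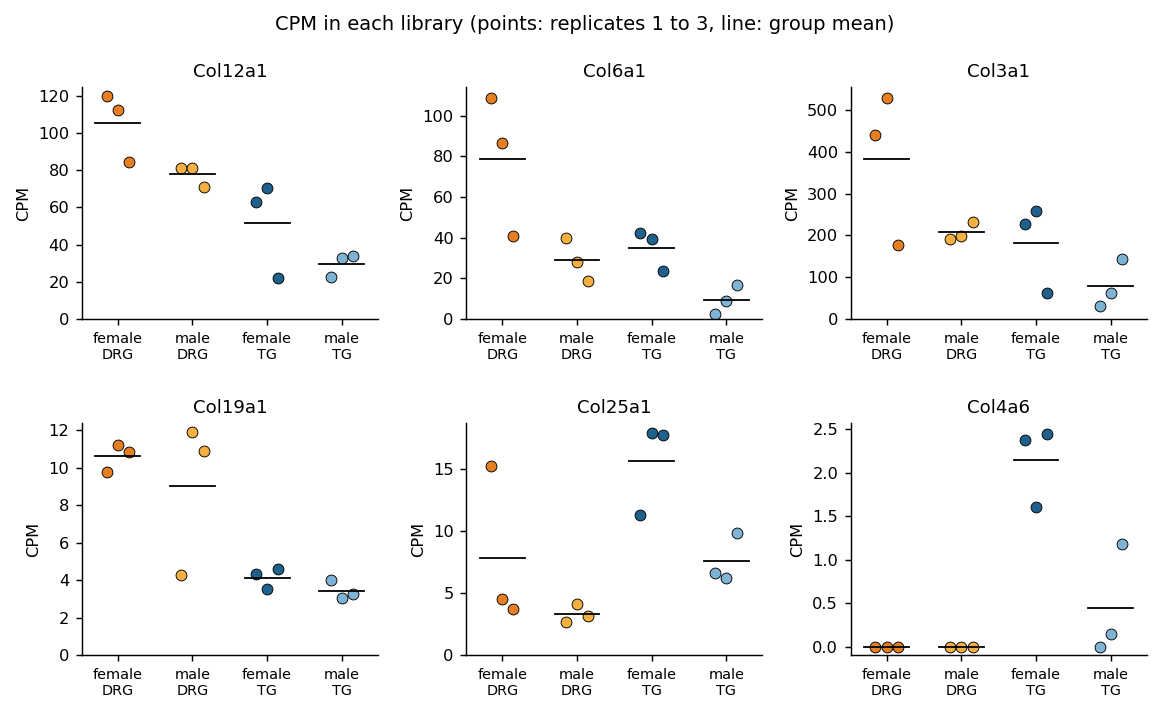
CPM of 6 collagen chains in each library, by group, with points for replicates 1 to 3 and a line at the group mean. Col12a1 separates DRG from TG, Col6a1, Col3a1 and Col19a1 overlap, and Col4a6 is at 0 in all 6 DRG libraries.

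Type VI collagen forms beaded microfilaments next to basement membranes, and its common form joins the chains of Col6a1, Col6a2 and Col6a3. Col6a1 was at 109, 86.6 and 40.98 CPM in female DRG, 40.1, 28.2 and 18.5 in male DRG, 42.1, 39.2 and 23.6 in female TG and 2.73, 8.84 and 16.9 in male TG. Male TG lay under every other library, and female TG lay inside the DRG range. The difference was -1.39 ± 0.35, the second smallest p of all members (adjusted p = 0.0713 in edgeR, 0.00662 in DESeq2). Col6a2 gave -0.90 ± 0.31 (adjusted p = 0.27). Col6a3, the third partner, gave -0.16 ± 0.28 (adjusted p = 0.982), so the fitted values of the partners were unequal, although the differences between them were not tested. The ratio of Col6a1 to Col6a3 in reads per kilobase ran from 0.177 to 1.49 in TG libraries and from 0.722 to 2.15 in DRG libraries, with overlap.

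Basement membrane chains come as head-to-head gene pairs that share a start region: Col4a1 with Col4a2, Col4a3 with Col4a4, and Col4a5 with Col4a6. The RefSeq starts of Col4a1 and Col4a2 lie 21 bases apart on chromosome 8 (GRCm38.p6), and their transcripts overlap there on opposite strands. Col4a1 was at 136 ± 77.6 CPM in TG and 133 ± 65.1 in DRG, and Col4a2 at 69.2 ± 48.9 and 61.1 ± 33.1 (SD, n = 6 each). The differences were -0.03 ± 0.29 and 0.11 ± 0.31 (adjusted p = 0.9998 and 0.994). The pair kept a narrow ratio, with 1.68 to 2.54 reads per kilobase of Col4a1 for each of Col4a2 in TG and 1.68 to 3.28 in DRG. Col4a3, Col4a4 and Col4a5, the chains best known from kidney, cochlea and lung, were rare: 3.23 ± 3.45, 4.62 ± 2.11 and 4.90 ± 3.85 CPM in TG and 2.71 ± 1.99, 4.78 ± 2.26 and 2.69 ± 1.93 in DRG. Their differences were 0.52 ± 1.003, -0.07 ± 0.52 and 0.89 ± 0.77, with adjusted p of 0.985, 0.9998 and 0.893.

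Col4a6 is the basement membrane chain of smooth muscle and some epithelia. It had 0 reads in each of the 6 DRG libraries, 27, 20 and 31 reads in female TG and 0, 2 and 12 in male TG. Its mean level in TG was at least 28.9 times that in DRG, by a floor of 3 counts over the DRG group. This bound leaves out the spread between TG libraries, and the male TG 1 library overlapped with DRG at 0. The adjusted p was 0.187 by edgeR, so the difference did not pass, and 0.0401 by DESeq2, which called it. The absence of reads in DRG allows up to 0.0447 CPM over the group. The 250 bases upstream of the starts of Col4a5 (chrX:141475169-141475418, plus strand) and Col4a6 (chrX:141474077-141474326, minus strand) are shown because these neighbours, whose RefSeq starts in GRCm38.p6 are 1343 bases apart, were read so differently in DRG. Capitals mark the box CCAAT, the GC box motif GGGCGG and the TATA box, searched for as TATAAA, on either strand, and no match overlapped another. Each sequence runs 5′ to 3′ toward its own gene.
Col4a5: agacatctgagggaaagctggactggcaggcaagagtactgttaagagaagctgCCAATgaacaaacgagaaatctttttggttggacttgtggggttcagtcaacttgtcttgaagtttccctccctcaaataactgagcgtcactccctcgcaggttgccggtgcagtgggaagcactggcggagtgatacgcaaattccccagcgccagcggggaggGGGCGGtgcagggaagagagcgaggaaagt
Col4a6: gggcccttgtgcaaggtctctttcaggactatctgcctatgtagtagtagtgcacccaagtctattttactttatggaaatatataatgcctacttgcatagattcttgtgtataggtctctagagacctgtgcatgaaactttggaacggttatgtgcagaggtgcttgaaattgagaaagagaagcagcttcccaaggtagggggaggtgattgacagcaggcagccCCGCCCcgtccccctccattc
The Col4a5 window holds a CCAAT and a GGGCGG match, and the Col4a6 window a GGGCGG match as its reverse complement. Of 32851 windows in the table, 33.8% hold CCAAT, 32.7% hold GGGCGG and 12.4% hold TATAAA. Windows were found for 35 of the 43 members, and 13, 21 and 5 of these hold the 3 motifs. A match describes letters only and is not a measured binding site.

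Transmembrane collagens are shed from or held at the cell surface, and several are made by neurons and muscle. Col25a1, which is required for motor innervation, was at 15.2, 4.53 and 3.73 CPM in female DRG, 2.71, 4.13 and 3.15 in male DRG, 11.3, 17.9 and 17.7 in female TG and 6.64, 6.21 and 9.82 in male TG. Female DRG 1 lay among the TG libraries, and the other 5 DRG libraries lay under all TG libraries. The difference was 1.09 ± 0.40 (adjusted p = 0.337). Without female DRG 1 and female TG 3 it was 1.4996 ± 0.36 (adjusted p = 0.0365), and Col25a1 was then the 1 member of 39 that passed. In that fit 227 of 15173 genes passed, against 114 genes with all 12 libraries. The joint removal was chosen after seeing the data. It takes out female DRG 1, the DRG library that overlapped with TG for this gene. Col23a1 was at 24.8 ± 7.05 in TG and 20.4 ± 5.66 in DRG, a difference of 0.28 ± 0.26 (adjusted p = 0.905). Col13a1 of the neuromuscular junction and Col17a1 of skin were at 0 in at least 1 library of each ganglion.

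Short-chain, multiplexin and other chains gave no call between ganglia. Col8a1 and Col8a2, which make the hexagonal lattices of vessel walls and cornea, gave -0.46 ± 0.39 (adjusted p = 0.888) and -0.84 ± 0.78 (adjusted p = 0.908). The multiplexins Col15a1 and Col18a1, which are proteoglycans of the basement membrane zone, gave -0.67 ± 0.36 (adjusted p = 0.658) and -0.30 ± 0.37 (adjusted p = 0.957). Col28a1 was at 134 ± 26.3 CPM in TG and 150 ± 38.9 in DRG, and gave -0.17 ± 0.20 (adjusted p = 0.956). Col7a1 gave 0.64 ± 1.63 (adjusted p = 0.993) from at most 20 reads in a library.

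Marker genes of cell types were set beside these differences. Of 7 fibroblast markers 5 were lower in TG (median log2 fold change -0.23), with a summed level of 529 to 1075 CPM in TG and 634 to 1130 in DRG. Of 7 mural cell markers 6 were lower in TG (median -0.37), and all 7 endothelial markers were higher (median 0.16). Macrophage markers were higher in TG in 4 of 5 (median 0.28), myelinating Schwann cell markers in 5 of 6 (median 0.21) and satellite glia markers in 3 of 5 (median 0.05). Sensory neuron markers gave 4 of 9 (median -0.02), and 3 of the 9 had an unadjusted p below 0.05 in edgeR. Of all these lists 0 members had an adjusted p below 0.05. Of the bone markers, Bglap and Bglap2 were at 0 in every library and the list summed to between 2.01 and 11.9 CPM in TG and at most 5.08 in DRG. Of the cartilage markers, Matn1 was at 0 throughout, but the list summed to 58.9 to 96.6 CPM in TG and 41.2 to 97.5 in DRG. The highest means in it were those of Hapln1 (38.4 CPM in TG, 36.7 in DRG) and Lect1 (35.9 and 31.4). Cartilage markers were higher in TG in 3 of the 4 tested (median 0.12). The part of these cells in the collagen differences was not tested, and in bulk RNA fewer cells of a type cannot be told apart from less RNA per cell.

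Females were compared with males within each ganglion on its 6 libraries, by criteria modelled on those of the study: a fold above 2, an unadjusted p below 0.05 and a mean CPM above 1 in the higher sex. The study set its level minimum per kilobase (RPKM), and with a mean CPM per kilobase above 1 the counts below were 14 in place of 15 in TG, where Col2a1 was lost, and 7 as before in DRG. In TG, 34 members were tested and 33 had higher fitted levels in females, with a median log2 fold change (female over male) of 1.02 against 0.05 for all genes. The criteria were met by 15 members as higher in females and by 0 as higher in males, where 5.14% and 2.24% of all genes met them. By adjusted p in edgeR, 0 of the 15 passed (smallest adjusted p = 0.154), as did 0% of all genes, while DESeq2 gave 5 members as higher in females, against 2.41% of genes. The 15 were 7 of 11 fibrillar chains, Col4a1, Col4a2, Col6a1, Col6a2, Col9a2, Col15a1, Col16a1 and Col25a1. Col6a2 had the smallest p, at 33.1, 34.5 and 29.9 CPM in female TG and 3.46, 7.66 and 16.6 in male TG. The sexes did not overlap, and the difference was 1.86 ± 0.47 (unadjusted p = 0.00226 in edgeR's fit). Col6a1 gave 1.93 ± 0.53 and Col5a2 gave 1.06 ± 0.31, both also without overlap. In all, 7 members had no overlap between the sexes with females higher, where 11.2% of genes did.

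The count in TG moved with single libraries and with the composition of the genes. Without female TG 3 the criteria were met by 19 members and by 17.5% of all genes. Of the members, 18 had an adjusted p below 0.05 and a fold above 2, where 2031 of the genes tested did (14.1%). Without female TG 1, female TG 2, male TG 1, male TG 2 or male TG 3 the criteria were met by 7, 6, 6, 8 and 17 members. Over all genes the shares were then 5.94%, 4.04%, 4.11%, 5.99% and 11.1%, in either direction. Collagen genes had a median GC content of 53.5% and exon length of 6887 bases, against 49.9% and 3720 for all genes tested. With a correction for GC content and length the median of the members was 0.30, against 0.04 for all genes. The criteria were then met by 6 members and by 2.18% of all genes. Col4a1 was then at 0.20 ± 0.19 and Col4a2 at 0.16 ± 0.21, from 1.08 and 1.33. In female TG libraries the markers of mural cells (6 of 7, median 1.18), macrophages (5 of 5, median 1.04), myelinating Schwann cells (5 of 6, median 0.86) and fibroblasts (6 of 6, median 0.43) were higher as well, and those of sensory neurons gave 6 of 9 and a median of 0.20. Endothelial markers gave 6 of 7 (median 0.38). Satellite glia markers gave 2 of 5 (median -0.06), cartilage markers 2 of 4 (median 1.02) and bone markers 1 of 2 (median -0.22). Summed fibroblast markers were 840 to 1045 CPM in female TG and 529 to 1075 in male TG. Their part in the collagen difference was not tested.

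In DRG, 25 of 34 members had higher fitted levels in females, with a median of 0.71 against 0.02 for all genes. The criteria were met by 7 as higher in females and by 0 as higher in males, where 2.01% and 2.93% of genes met them. By adjusted p in edgeR, 0 passed (smallest adjusted p = 0.307), as did 0% of all genes, while 11 members had an unadjusted p below 0.05 as higher in females, against 3.84% of genes, and DESeq2 gave 3 by adjusted p, against 0.258%. The 7 were Col1a1, Col5a1, Col6a1, Col8a1, Col15a1, Col18a1 and Col27a1. Col6a1 had the smallest p, with the values given above. The 3 female DRG libraries (40.98 to 109 CPM) were all above the male ones (18.5 to 40.1), by a difference of 1.46 ± 0.40 (unadjusted p = 0.00311 in edgeR's fit). Col8a1 was at 52.6, 57.2 and 22.8 CPM in female DRG and 5.33, 13.0 and 20.0 in male DRG, again without overlap, and gave 1.78 ± 0.51. Col18a1 was at 68.1, 52.4 and 14.6 in female DRG and 15.7, 13.98 and 13.2 in male DRG, with overlap through female DRG 3, and gave 1.66 ± 0.48. In all, 5 members had no overlap with females higher, where 7.84% of genes did.

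The DRG count moved as well. It was 4, 4 and 13 without female DRG 1, 2 and 3, and 5, 5 and 8 without male DRG 1, 2 and 3. In these fits 4.31%, 4.71%, 11.0%, 3.16%, 2.58% and 8.16% of all genes met the criteria in either direction. Of the 13, 1 was higher in males. With the correction for GC content and length it was 2, where 3.39% of all genes met the criteria. The median was then 0.24, against 0.08 for all genes. Endothelial markers were higher in female DRG in 7 of 7 (median 1.08), as were mural markers in 7 of 7 (median 0.76), macrophage markers in 5 of 5 (median 0.85) and fibroblast markers in 5 of 7 (median 0.39), and their part was not tested. Sensory neuron markers gave 4 of 9 and a median of -0.10. Myelinating Schwann cell markers gave 5 of 6 (median 0.59), satellite glia markers 4 of 5 (median 0.08) and cartilage markers 0 of 3 (median -0.74).

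Col1a1, Col5a1, Col6a1 and Col15a1 met the criteria in both ganglia. Col15a1 was at 174, 149 and 48.5 CPM in female TG and 18.8, 30.7 and 85.2 in male TG, and at 210, 226 and 73.7 in female DRG and 81.1, 67.6 and 98.1 in male DRG. The sexes overlapped in both ganglia, through female TG 3 and male TG 3 and through female DRG 3. Its difference was 1.52 ± 0.56 in TG and 1.05 ± 0.39 in DRG. Col1a1 gave 1.52 ± 0.66 and 1.07 ± 0.46, and Col5a1 gave 1.27 ± 0.55 and 1.35 ± 0.44. With the correction for GC content and length Col6a1 alone met the criteria in both ganglia, at 1.34 in TG and 1.12 in DRG. Col1a1 was then at 0.65 and 0.43, Col5a1 at 0.34 and 0.70 and Col15a1 at 0.82 and 0.55. Whether the sex difference itself differed between ganglia was tested as an interaction over the 12 libraries. By adjusted p, 0 of 39 members passed, as did 0% of all genes, with no adjusted p of a member below 0.9998. At an unadjusted p below 0.05 there was 1 member, Col9a2, where 1.97% of genes were below it, and DESeq2 also gave 0 by adjusted p.

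**Figure D5:**
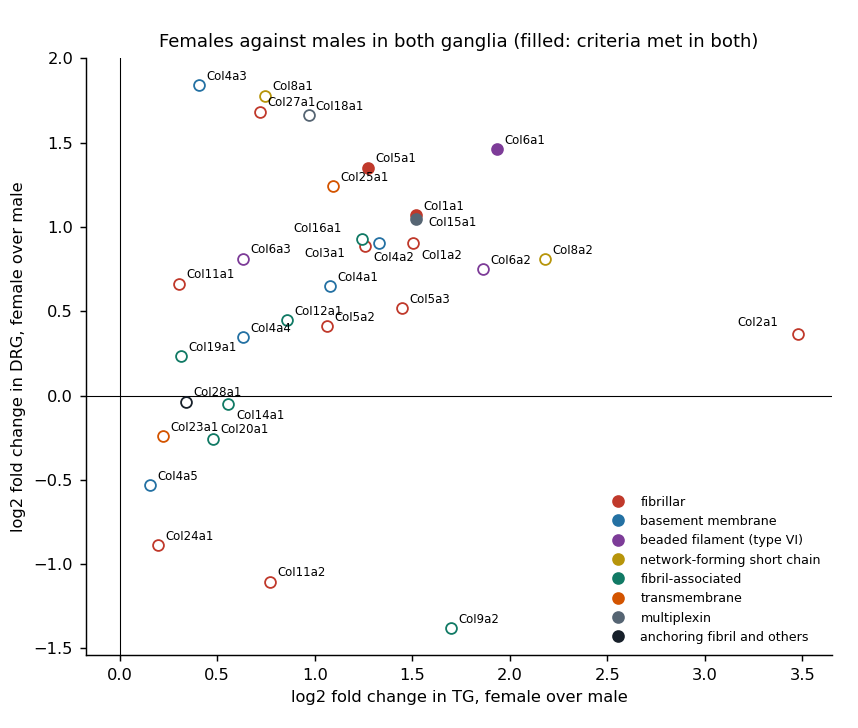
Log2 fold change, female over male, in TG (horizontal) and in DRG (vertical) for the 32 members tested in both, coloured by class. Of these, 24 lie above 0 on both axes, and the 4 filled points met the criteria in both ganglia.

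Genes that fold, trim, bind or degrade collagen were given the same TG against DRG test. Of 58 listed genes in 5 lists, 55 were tested with edgeR and 0 passed in either direction. Over all genes tested, 0.479% passed as higher in TG and 0.29% as higher in DRG. At an unadjusted p below 0.05, 3 listed genes were higher in TG and 6 higher in DRG, where 4.65% and 4.18% of all genes were. DESeq2 called 2 of the listed genes, where it called 1.32% of all genes. All 8 genes for fibril-binding proteoglycans and partners had lower fitted levels in TG (median -0.31), where 7568 of all 14829 genes tested did. The smallest p was that of Fn1, the fibronectin that collagen fibrils assemble on. It was at 79.1 ± 39.5 CPM in TG and 193 ± 106 in DRG (-1.22 ± 0.31, adjusted p = 0.0701). Bgn, a proteoglycan that binds fibrils, gave -0.36 ± 0.24 (adjusted p = 0.778). Among the trimming and crosslinking genes, the crosslinking oxidase Lox gave -1.60 ± 0.45 (adjusted p = 0.129) and the procollagen protease Adamts2 gave -1.29 ± 0.48 (adjusted p = 0.35). Among the degradation genes, the protease Ctsk gave -0.81 ± 0.26 (adjusted p = 0.229), and Mmp9 gave -3.16 ± 1.41 (adjusted p = 0.517) with libraries at 0 in both ganglia. Folding and modification genes had a median of -0.01 over 16 tested, with the galactosyltransferase Glt25d2 at 0.41 ± 0.17 (adjusted p = 0.461) and the lysyl hydroxylase Plod2 at 0.55 ± 0.24 (adjusted p = 0.497). Among the receptors, Lair1, which inhibits leukocytes on collagen, gave 0.95 ± 0.35 (adjusted p = 0.349) and Ddr2, a receptor kinase for fibrils, gave -0.44 ± 0.23 (adjusted p = 0.619).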

How the data were processed

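RNA had been extracted from sensory-neuron-enriched fractions, depleted of ribosomal RNA and sequenced as stranded single reads. The authors aligned the reads to mm9 with TopHat2 and counted them per gene with HTSeq, and what they deposited are raw counts of reads for each gene symbol, not normalized. The annotation, the counting tool's version and its strand setting are not given in the sources used here. The 5 summary lines that end each file name no gene and were left out. The reads in them that aligned outside genes were 37.6 to 50.4% of the reads in genes and outside genes together. In DRG this share was 46.4 to 50.4% in females and 38.2 to 42.6% in males, without overlap. In TG it was 43.5 to 49.1% in females and 37.6 to 47.9% in males. Its part in the sex differences was not tested. Here, edgeR 4.0.16 (R 4.3.3) was used with filterByExpr, TMM factors, the quasi-likelihood F-test and Benjamini-Hochberg adjustment over all genes tested. TG and DRG were compared in a model of 4 group means over 12 libraries, and the sexes within each ganglion on 6 libraries. Sex-check genes (6) were left out of the sex backgrounds. Standard errors are approximate, taken from the fold change and its F statistic. CPM values are TMM-scaled. Lengths, GC content and positions came from the annotation of the same build (GENCODE M1, NCBIM37), which matched 21485 genes (95.0%) and all 43 members. Sequences came from it and from RefSeq windows on GRCm38.p6. A library's floor of 3 counts was 0.195 to 0.399 CPM. DESeq2 1.42.0, other scalings, no filter, a correction for GC content and length (loess, span 0.5), a replicate block and leaving out libraries were alternatives, with a level minimum of 1 CPM per kilobase for the sex criteria added after seeing the data. The test was tried on simulated counts. Members and lists were chosen with earlier results of these data known. Named members are those with an adjusted p below 0.05 between ganglia, the 2 highest per class and the smallest p per class, those meeting the sex criteria in both ganglia, the 3 smallest p per ganglion, the type IV gene pairs and members under 10 reads throughout, and for the other lists the 2 smallest p. The 8 members without an entry among the RefSeq windows were Col12a1, Col1a1, Col2a1, Col4a3, Col5a2, Col9a3, Col14a1 and Col22a1.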

Additional observations from a re-analysis of the deposited data

Results flagged for a closer look

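A library was set against the other 5 of its ganglion for 25 named members, on the CPM scale, by the gap to its nearest neighbour over the whole range. Of 49 such sets, 4 held a library beyond the 95% limit, and chance gives about 1 in 20. Col8a2 was at 14.4 CPM in female TG 2, while the other TG libraries ran up to 3.87. Col25a1 was at 15.2 CPM in female DRG 1, the library that the first principal component set apart. Col6a2 was at 63.2 CPM in female DRG 2. Col22a1 was at 0.483 CPM in male TG 2, which stood for 7 reads. No sex difference of a member differed between the ganglia by an adjusted p in edgeR's interaction test.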

How the results depend on the processing

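Between the ganglia, 1 collagen passed with DESeq2 size factors, without composition factors and by adjusted p alone, as in the reported fit. The count was 4 with the DESeq2 test, 3 with no filter on low counts, 4 with the GC and length correction and 0 in female libraries only. For the matrix gene lists, where 0 passed, these fits gave 2, 1, 1 and 0. Leaving out each library in turn gave 0 to 3 collagens and 0 to 1 matrix genes, with Col25a1 added without female DRG 1, Col6a1 without female DRG 3, and Col3a1 and Col6a1 without male TG 3. The replicate block gave 4 collagens (Col12a1, Col1a1, Col3a1 and Col6a1, all lower in TG) and 2 matrix genes, and the replicate block with GC and length correction, chosen like the joint removal of female DRG 1 and female TG 3 after seeing the data, gave 6, with Col5a1 and Col6a2 added, and 2. Over all genes the count was 114, with 196 by DESeq2, 185 with the replicate block, 71 to 162 on leaving out a library, 5 in females only, 58 in males only and 227 without female DRG 1 and female TG 3. For females against males in TG, 15 collagens met the criteria, 0 by adjusted p over all genes, 7 with the replicate block, 6 with the GC and length correction, 5 with both, and 6 to 19 on leaving out a library. With the replicate block 1 member, Col6a1, met them in both ganglia. In DRG, 7 met them, 0 by adjusted p, 11 without composition factors, 4 with the replicate block, 2 with the GC and length correction, 2 with both, and 4 to 13 on leaving out a library. Over all genes, the counts in TG and DRG were 1033 and 689 (7.38% and 4.94%). They were 828 and 660 with the replicate block (5.91% and 4.73%), and 305 and 473 after the GC and length correction (2.18% and 3.39%). The cause of these changes was not tested. Within a sex, the TG library and the DRG library that carry one number correlated in their deviations from the group means at 0.0277 to 0.216, and 8 of 12 correlated best with their own number. Between the sexes it was -0.0984 to 0.00983 in TG, with 0 of 6 best with their own number, and 0.0317 to 0.168 in DRG, with 6 of 6. The labels do not link the libraries and the correlations were at most 0.216, so the numbers were not taken as pairs in the reported fits. Whether they mark pairs was not settled by these values. Named members with an unadjusted p below 0.05 in a comparison kept their direction in it under every alternative run, and the others were not followed. Members with few reads, such as Col22a1, Col9a1 and Col17a1, were limited by depth.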
